A study of Mus musculus with 39 samples.

Results

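Carboxylesterases are abundant liver enzymes, and this account follows 7 mouse genes of the family, Ces1g, Ces1e, Ces1d, Ces1f, Ces2a, Ces2e and Ces3a, through the livers of wild-type and PPARα-null mice given perfluorooctanoic acid (PFOA) or pirinixic acid. A gene was included when 1 array probe carried its symbol and no other. That held for 6 of the 7 genes, among 11591 genes with such a probe and a value on every array. Ces3a is covered by 1 probe that it shares with Ces3b, so no value is given for it. All values are log2 signals, on which a difference of 1 is a doubling, and the probes differ in their own brightness, so levels are compared between groups and never between genes.

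The mice were adult males of the 129SV background, either wild type or lacking PPARα (PPARa-null), the nuclear receptor that senses fatty acids in hepatocytes. They were gavaged for 7 days. PFOA, a persistent surfactant given as its ammonium salt, was dosed at 0, 1 or 3 mg/kg in deionised water. Pirinixic acid, a synthetic PPARα agonist that labels and plots name by a Wyeth code, was dosed at 0 or 50 mg/kg in 0.5% methylcellulose. Each genotype therefore has 5 groups, water, PFOA 1 mg/kg, PFOA 3 mg/kg, methylcellulose and pirinixic acid, and comparing the genotypes asks how far PFOA acts on the liver without PPARα. The 39 arrays fall into 10 groups of 4, except wild type with methylcellulose, which has 3. The labels do not say whether null and wild-type mice were littermates.

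Carboxylesterases are serine hydrolases of the endoplasmic reticulum that cleave esters, amides and thioesters. In liver they release fatty acids from stored acylglycerols for lipoprotein assembly, and they hydrolyse ester drugs, pyrethroids and other xenobiotics. Nuclear receptors of xenobiotic and lipid sensing are known to regulate several members. In the mouse the family has expanded into tandem arrays of genes, most of them with a single human counterpart for the whole subfamily.

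All 7 genes lie on chromosome 8 in the RefSeq annotation of GRCm38.p6, in 2 uninterrupted clusters. The first runs from Ces1a to Ces5a and holds 9 protein-coding genes, all carboxylesterases, among them Ces1d, Ces1e, Ces1f and Ces1g in neighbouring order. The second runs from Ces2a to Ces4a and holds 10 protein-coding genes, again all carboxylesterases, among them Ces2a, Ces2e and Ces3a.

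Promoter windows, from 250 bases before to 50 bases after the annotated start, were at hand in RefSeq's table (GRCm38.p6) for 4 of the 7 genes. The 250 bases upstream are printed for these because Ces1g, Ces2a and Ces1e carry the responses described next, and Ces2e is the subfamily partner of Ces2a and was called in no comparison. They lie at chr8:93337210-93337459 (minus strand, Ces1g), chr8:93229620-93229869 (minus strand, Ces1e), chr8:104733753-104734002 (plus strand, Ces2a) and chr8:104926010-104926259 (plus strand, Ces2e), and each reads 5′ to 3′ toward the gene. Capitals mark a match to a searched motif.
Ces1g: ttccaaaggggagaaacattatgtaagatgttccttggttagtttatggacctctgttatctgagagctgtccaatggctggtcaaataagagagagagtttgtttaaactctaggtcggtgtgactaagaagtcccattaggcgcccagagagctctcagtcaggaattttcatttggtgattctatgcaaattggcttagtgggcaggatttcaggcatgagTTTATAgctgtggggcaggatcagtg
Ces1e: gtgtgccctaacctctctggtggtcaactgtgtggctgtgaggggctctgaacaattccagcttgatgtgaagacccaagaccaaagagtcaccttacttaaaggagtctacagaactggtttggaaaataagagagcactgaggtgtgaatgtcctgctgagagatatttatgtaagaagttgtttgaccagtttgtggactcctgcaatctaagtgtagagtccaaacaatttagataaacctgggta
Ces2a: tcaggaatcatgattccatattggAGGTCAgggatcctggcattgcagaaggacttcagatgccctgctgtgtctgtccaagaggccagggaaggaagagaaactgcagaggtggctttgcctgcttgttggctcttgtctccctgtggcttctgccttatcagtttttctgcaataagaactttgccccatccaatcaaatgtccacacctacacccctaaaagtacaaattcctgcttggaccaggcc
Ces2e: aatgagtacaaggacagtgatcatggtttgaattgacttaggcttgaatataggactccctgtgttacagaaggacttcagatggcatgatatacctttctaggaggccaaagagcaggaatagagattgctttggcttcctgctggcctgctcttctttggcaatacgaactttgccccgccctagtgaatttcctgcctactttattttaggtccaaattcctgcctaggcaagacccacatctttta
The motifs searched on both strands of the 300-base windows were the nuclear receptor hexamer AGGTCA, its direct repeats AGGTCANAGGTCA (DR1, the spacing that PPARα uses) and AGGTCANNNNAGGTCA (DR4, a spacing that CAR and PXR use), the antioxidant response core TGACNNNGC and TATAAA. The hexamer, which is contained in both repeats, was found once, in Ces2a at position -226 from the start, and 16.3% of the 32851 RefSeq promoters of the same length hold it. The TATA sequence was found once, in Ces1g at -26 on the opposite strand (TTTATA), against 13.6% of promoters. Neither repeat was matched in any of the 4 windows, and 0.04% and 0.015% of all promoters hold DR1 and DR4 by these exact letters. The antioxidant core, held by 12.4% of promoters, was not matched either, and Ces1e and Ces2e had no match of any kind in this window. After alignment with gaps, the Ces2a and Ces2e windows shared 184 identical bases of 300, and the other 5 pairs shared 155 to 167.

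The arrays and their labels were checked first. Arrays of the same group correlated at 0.928 to 0.974 over 25295 tested probes. The Ppara probe gave signal in both genotypes (15.00 to 16.29 on null arrays, 15.62 to 16.84 on wild-type arrays). These ranges overlap over all arrays. Within each treatment every array labelled null read below every array labelled wild type, most narrowly on pirinixic acid (up to 16.06 and from 16.07). Cox6b2, a gene that separates the genotypes on every other array, read 6.91 to 10.05 on null arrays and at least 13.29 on the other wild-type arrays. It read 9.06 on replicate 3 of the wild-type group labelled as given 1 mg/kg PFOA, whose value for Ehhadh, a PPARα target enzyme of peroxisomes, was 15.94 beside at least 20.01 on the other 3 arrays of that group. Acot1, another PPARα target, read 16.47 on the same array. In wild type on water it read 12.17 to 13.88. In null mice it read 14.38 to 15.69 on water, 15.34 to 16.28 at 1 mg/kg and 16.44 to 17.05 at 3 mg/kg. Ppara on the same replicate 3 read 16.20, above the null arrays at 1 mg/kg (15.57 to 15.95) and 3 mg/kg (15.00 to 16.02). The other 3 arrays of its group read 16.66 to 16.81, and null methylcellulose arrays reached 16.29. The genotype and dose behind the array were not tested. That array goes against its label in Cox6b2 and Ehhadh and is called the doubtful array here. The differences and means of its group are given with and without it. Correlations over arrays or group means, and values within array sets, include it. A second split ran across the groups: 85 probes, none of a carboxylesterase, divided the arrays into sets of 16 and 23 with a median gap of 4.28, and each group has arrays in both sets, apart from the pirinixic acid group of wild type, where all 4 are in the larger. The 5 tested hepatocyte markers lay between percentiles 97.6 and 99.9 of all tested probes, and the mean signals of the 6 carboxylesterases between percentiles 93.4 and 99.1.

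**Figure D1:**
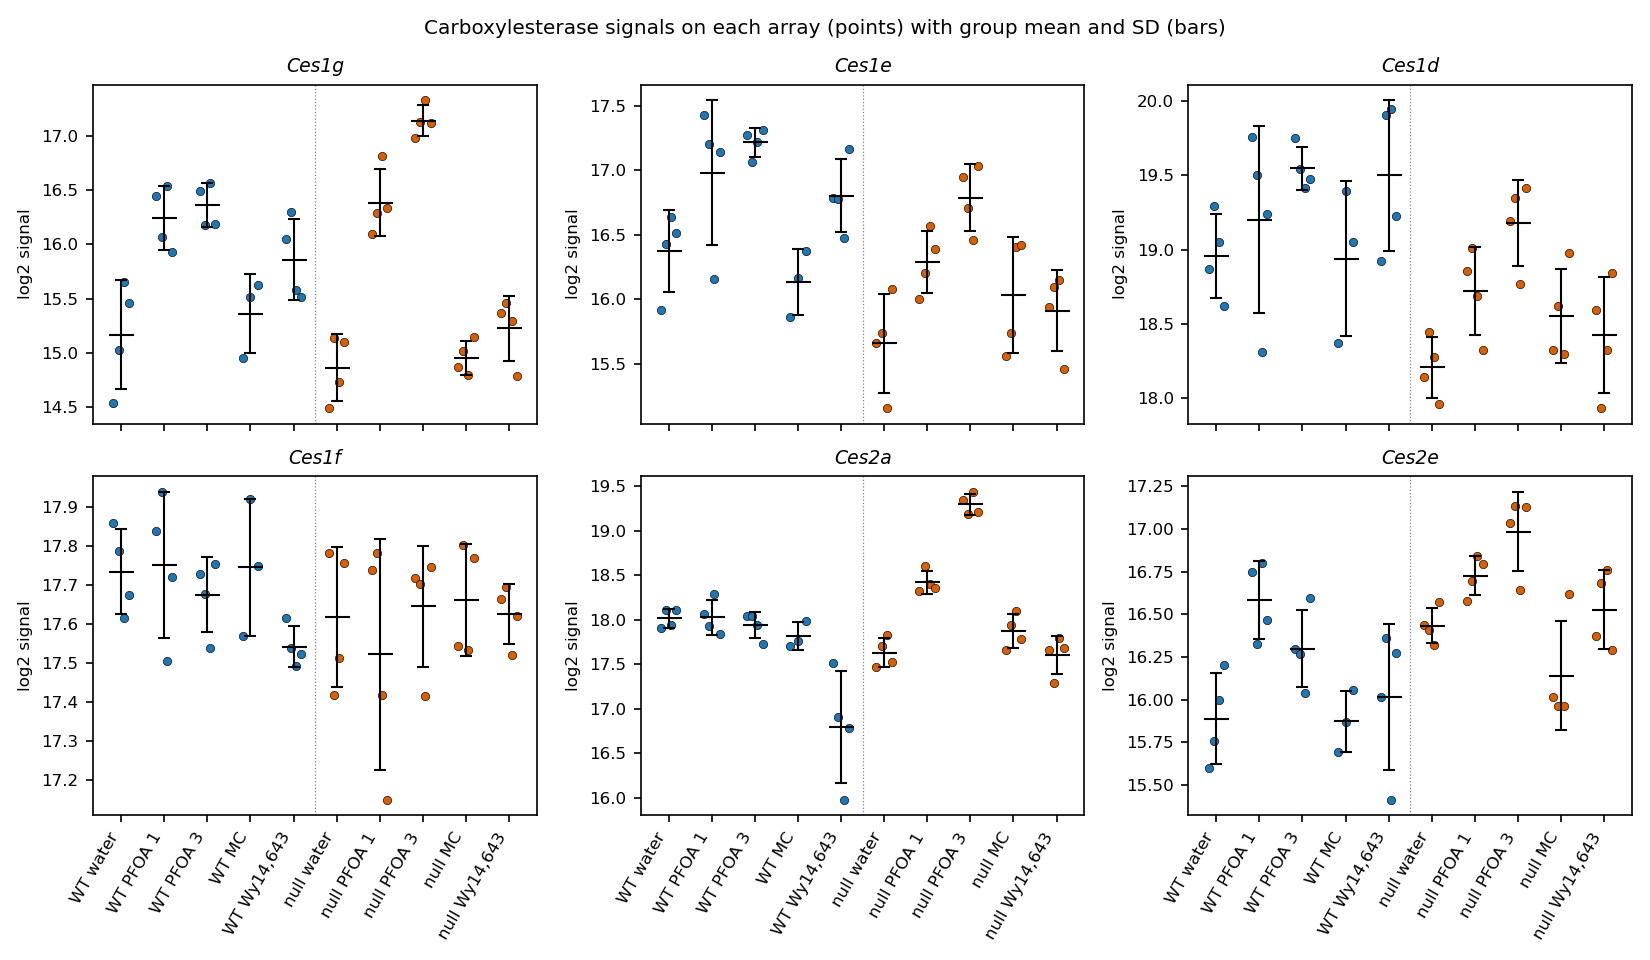
Log2 signal of 6 carboxylesterase genes on each of 39 arrays (points), with group means and SDs (bars), wild type in blue and PPARα-null in orange. Ces1g and Ces2a stand highest in null mice given PFOA at 3 mg/kg, Ces2a stands lowest in wild type given pirinixic acid, and the Ces1f groups differ by at most 0.23 in their means with the doubtful array included.

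In PPARα-null mice, PFOA at 3 mg/kg raised Ces1g, Ces2a and Ces1e, by 4.85-fold, 3.17-fold and 2.18-fold against water. These are 3 of the 6 genes tested, none fell, and 0.300% of all tested probes changed in the same comparison. Their median difference was 1.05, beside -0.03 over all tested probes. 5 of the 6 had an unadjusted p under 0.05 in limma, the exception being Ces1f.

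Ces1g, a microsomal carboxylesterase whose loss in mice raises liver lipid, had log2 signals of 14.49, 15.13, 14.73 and 15.10 in null mice on water. They were 16.98, 17.13, 17.33 and 17.12 at 3 mg/kg. No array of one group reached the other, and the difference was 2.28 ± 0.22 (SE, n = 4 and 4, adjusted p = 1.55e-07, limma). Ces2a, a CES2-type esterase of liver and gut, read 17.47, 17.70, 17.83 and 17.52 on water. At 3 mg/kg it read 19.35, 19.19, 19.44 and 19.21. The 4 treated arrays lay well above the 4 controls, with a difference of 1.67 ± 0.19 (adjusted p = 3.24e-06).

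Ces1e, known as egasyn for holding beta-glucuronidase in the endoplasmic reticulum, read 15.66, 15.74, 15.16 and 16.08 on water in null mice. It read 16.95, 16.71, 16.46 and 17.04 at 3 mg/kg. The groups did not overlap and differed by 1.13 ± 0.24 (adjusted p = 0.0263, limma). Unlike the first pair of genes, this call was kept in only 2 of the 8 fits that left out 1 array. The call was lost without null PFOA 3 mg/kg replicate 1 (1.07, adjusted p = 0.0919), replicate 2 (1.15, 0.0611) or replicate 4 (1.04, 0.121). It was also lost without null water replicate 1 (1.13, 0.0849), replicate 2 (1.15, 0.0603) or replicate 3 (0.96, 0.191), so the size held while the adjusted p did not. In a fit of only the null water and PFOA 3 mg/kg arrays the adjusted p was 0.251.

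Ces1d, the triacylglycerol hydrolase that mobilises stored lipid for VLDL, did not pass the test. Its signals were 18.14, 18.45, 18.28 and 17.96 on water and 19.19, 19.35, 18.77 and 19.41 at 3 mg/kg in null mice. The ranges did not overlap, and the difference was 0.97 ± 0.27 (adjusted p = 0.158). Ces2e, a second CES2-type enzyme, went from 16.32 to 16.57 on water to 16.64 to 17.14 at 3 mg/kg, also without overlap, a difference of 0.55 ± 0.19 (adjusted p = 0.337). Ces1f, a microsomal carboxylesterase next to Ces1g on the chromosome, differed by 0.03 ± 0.13 (95% interval -0.24 to 0.30), and its groups overlapped.

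At 1 mg/kg in null mice, Ces1g rose 2.87-fold, by 1.52 ± 0.22 (adjusted p = 0.00158, limma). Its 4 arrays read 16.09, 16.29, 16.82 and 16.34, all above the water group. It was 1 of 6 carboxylesterases called, beside 0.0119% of all tested probes, and their median difference was 0.57 against -0.01 for all probes. Ces2a read 18.32, 18.60, 18.40 and 18.36, above every water array, with a difference of 0.79 ± 0.19 and an adjusted p of 0.406 (unadjusted 0.000225). The differences of Ces1e, Ces1d, Ces2e and Ces1f were 0.63, 0.51, 0.29 and -0.10, and none of these passed. Ces1g was called in each of the 8 fits that left out 1 array (1.38 to 1.62), and not in a fit of only the groups compared (adjusted p = 0.169).

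Between 1 and 3 mg/kg in null mice none of the 6 genes was called by limma, beside 0.00791% of all probes, and 3 of the 6 had an unadjusted p under 0.05. Ces2a was higher at 3 mg/kg by 0.88 ± 0.19 (adjusted p = 0.229) and Ces1g by 0.76 ± 0.22 (adjusted p = 0.628). For both genes the arrays of the doses did not overlap. In wild type the same comparison called none of the 6, beside 0.0277% of all probes, with 0 of 6 at an unadjusted p under 0.05 in limma. There Ces2a differed by -0.09 ± 0.19 and Ces1g by 0.12 ± 0.22, and the ranges of the doses overlapped. Without the doubtful array these were -0.01 ± 0.20 and 0.21 ± 0.24, and again none of the 6 was called, beside 0.00791% of all probes.

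**Figure D2:**
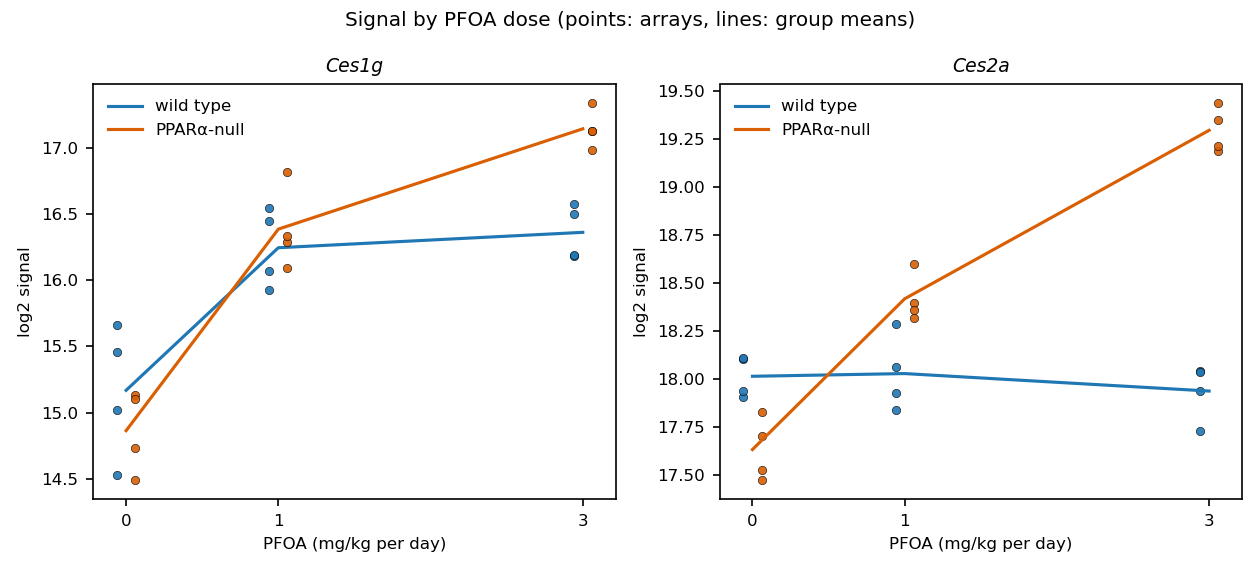
Log2 signal of Ces1g and Ces2a against PFOA dose in mg/kg, with points for arrays and lines through group means, wild type in blue and PPARα-null in orange. Ces1g is higher at both doses in both genotypes, while Ces2a climbs to 19.30 in null mice and stays between 17.94 and 18.03 in wild type (17.94 to 18.01 without the doubtful array).

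Wild-type mice given 3 mg/kg showed rises of Ces1g and Ces1e, by 2.29-fold and 1.79-fold, and none for Ces2a. 2 of the 6 genes were called, both upward, while 5.82% of all tested probes changed in that comparison, and the median of the 6 was 0.50 against -0.02 for all probes. 4 of the 6 had an unadjusted p under 0.05.

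Ces1g read 14.53, 15.02, 15.66 and 15.46 in wild type on water. It read 16.50, 16.18, 16.57 and 16.19 at 3 mg/kg, above every control, and the difference was 1.19 ± 0.22 (adjusted p = 0.00086). Ces2a read 17.90, 18.10, 17.94 and 18.11 on water and 18.04, 18.04, 17.94 and 17.73 at 3 mg/kg. These groups overlapped, with a difference of -0.08 ± 0.19 whose 95% interval ran from -0.46 to 0.31. Ces1e read 15.92, 16.43, 16.64 and 16.51 on water and 17.28, 17.06, 17.22 and 17.31 at 3 mg/kg, without overlap, a difference of 0.84 ± 0.24 (adjusted p = 0.0343).

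The wild-type Ces1e call depended on single arrays. Of the 8 fits that left out 1 array it was called in 1, without wild-type water replicate 3 (adjusted p = 0.0401). It was lost without water replicate 1 (0.69, 0.106), 2 (0.86, 0.0704) or 4 (0.89, 0.0552). Without PFOA 3 mg/kg replicate 1 it was 0.82 (0.0542), without replicate 2 0.89 (0.0524), without replicate 3 0.84 (0.0821) and without replicate 4 0.81 (0.0767), and none of these passed. Ces1g was called in all 8 such fits (0.98 to 1.36). In a fit of only the groups compared neither was called (adjusted p = 0.0807 for Ces1g and 0.0999 for Ces1e).

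Ces1d in wild type read 18.87, 19.29, 19.05 and 18.62 on water and 19.75, 19.55, 19.42 and 19.48 at 3 mg/kg. The groups did not overlap, but the difference of 0.59 ± 0.27 did not pass (adjusted p = 0.231). Ces2e differed by 0.41 ± 0.19 (adjusted p = 0.226) with overlapping groups. Ces1f differed by -0.06 ± 0.13, again with overlap.

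At 1 mg/kg in wild type, Ces1g rose 2.11-fold, by 1.08 ± 0.22 (adjusted p = 0.0213, limma). It was the 1 gene of 6 called, beside 0.273% of all probes. Its arrays read 16.44, 16.07, 16.54 and 15.93, of which 16.54 is the doubtful array. Without that array the difference was 0.98 ± 0.24 (adjusted p = 0.0381), and 0.984% of all probes were called. The call was lost without wild-type PFOA 1 mg/kg replicate 1 (1.01, adjusted p = 0.0792), water replicate 1 (0.86, 0.0846) or water replicate 2 (1.03, 0.0956), and in a fit of only the groups compared (adjusted p = 0.451). Ces2e differed by 0.70 ± 0.19 with no overlap (adjusted p = 0.128), and by 0.63 without the doubtful array (0.172). Ces1e read 17.43, 17.20, 16.16 and 17.14, and Ces1d 19.76, 19.50, 18.31 and 19.24. In both genes the doubtful array was the lowest of its group, and leaving it out moved the difference of Ces1e from 0.61 to 0.88 (adjusted p = 0.0591) and that of Ces1d from 0.24 to 0.54 (0.467). The differences of Ces2a (0.01) and Ces1f (0.02) were small with or without it (-0.07 and 0.10).

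The genotypes were then compared in their responses, as the null difference minus the wild-type difference. At 3 mg/kg, Ces2a was the 1 carboxylesterase of 6 whose responses differed, beside 0.415% of all tested probes. Its response was larger in null mice by 1.74 ± 0.27 (95% interval 1.20 to 2.29, adjusted p = 0.000816). The call was kept in all 16 fits that left out 1 array, with values from 1.67 to 1.81.

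For Ces1g the null response was larger by 1.09 ± 0.32 (95% interval 0.44 to 1.73), which did not pass (adjusted p = 0.151). Leaving out wild-type water replicate 1, the lowest Ces1g array of that group, gave 1.30 and an adjusted p of 0.0445. The other 15 such fits did not pass. The differences for Ces1d (0.39), Ces1e (0.28), Ces2e (0.14) and Ces1f (0.09) had 95% intervals that include 0, that of Ces1e running from -0.42 to 0.99.

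At 1 mg/kg no carboxylesterase response differed between genotypes in limma, beside 0% of all probes, and 1 of 6 had an unadjusted p under 0.05. Ces2a differed by 0.77 ± 0.27 (adjusted p = 0.918) and by 0.86 without the doubtful array (0.488), and Ces1g by 0.44 and 0.54. Without it 0.162% of all probes were called.

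Pirinixic acid lowered Ces2a in wild-type mice to 0.493 of its methylcellulose level, a 2.03-fold fall. Ces2a read 17.70, 17.75 and 17.99 on methylcellulose. On pirinixic acid it read 17.51, 16.91, 15.97 and 16.78, all below the controls and with the widest spread of any group for this gene (SD 0.63). The difference was -1.02 ± 0.20 (adjusted p = 0.00221, limma), and leaving out 1 array gave -1.26 to -0.75 with the call kept in all 7 fits. The call was lost in a fit of only the groups compared, where the SE was 0.36 (adjusted p = 0.235), and within the larger array set (-1.08, 0.0934). It was 1 of 6 carboxylesterases called, beside 6.10% of all tested probes, which is the highest share of the comparisons made, and the median of the 6 was 0.32.

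The other 5 genes were not called in that comparison. Ces1e read 15.86, 16.17 and 16.37 on methylcellulose and 16.78, 16.78, 16.48 and 17.17 on pirinixic acid, without overlap, a difference of 0.67 ± 0.26 (adjusted p = 0.13). Ces1d differed by 0.56 ± 0.29 and Ces1g by 0.50 ± 0.24 (adjusted p = 0.271 and 0.234), and their groups overlapped. Ces1f differed by -0.20 ± 0.14 and Ces2e by 0.14 ± 0.20.

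In null mice pirinixic acid called none of the 6 in limma, beside 0% of all probes. Ces2e alone of the 6 had an unadjusted p under 0.05 (0.39 ± 0.19). Ces2a read 17.65, 17.94, 18.09 and 17.79 on methylcellulose and 17.66, 17.29, 17.79 and 17.68 on pirinixic acid. The groups overlapped and differed by -0.27 ± 0.19 (95% interval -0.65 to 0.12). The remaining differences were 0.27 for Ces1g, -0.13 for Ces1d, -0.12 for Ces1e and -0.04 for Ces1f.

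The genotype difference in the pirinixic acid response was called for none of the 6 in limma, beside 1.24% of all probes, and 2 of 6 had an unadjusted p under 0.05. For Ces2a the difference was 0.75 ± 0.28 (adjusted p = 0.171), and without wild-type pirinixic acid replicate 1, the highest Ces2a array of its group, it was 0.99 (0.0259). For Ces1e it was -0.79 ± 0.36 (adjusted p = 0.285) and for Ces1d -0.69 ± 0.40 (0.424). A fall of Ces2a confined to wild type is therefore not shown by this test with all arrays.

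**Figure D3:**
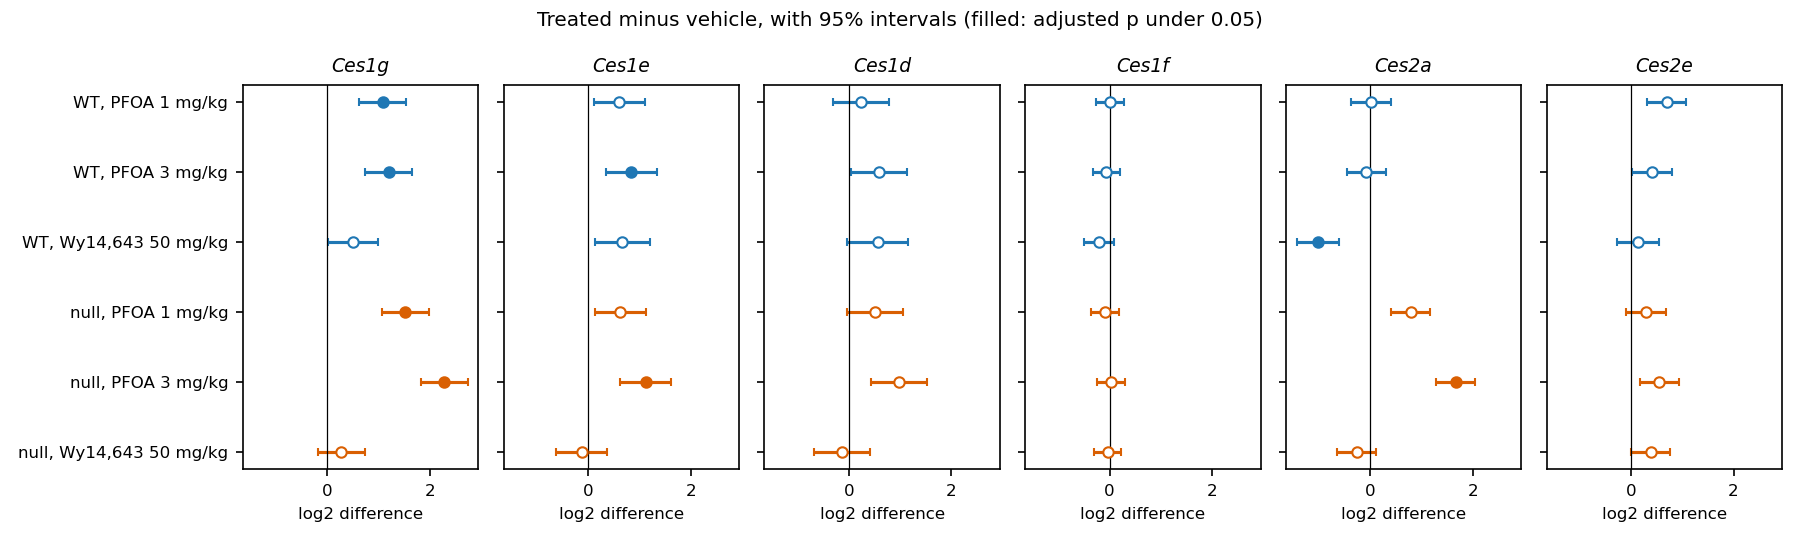
Log2 difference from the matching vehicle for each carboxylesterase and treatment, with 95% intervals, wild type in blue, PPARα-null in orange and filled points where the adjusted p was under 0.05. Ces1g is filled for all 4 PFOA groups, Ces1e for 3 mg/kg in both genotypes, and Ces2a for a rise of 1.67 in null mice at 3 mg/kg and a fall of 1.02 in wild type on pirinixic acid.

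PFOA at 3 mg/kg and pirinixic acid at 50 mg/kg were set side by side as responses to their own vehicles, although the doses differ. In null mice the PFOA response was larger for Ces1g by 2.01 ± 0.32 (adjusted p = 0.00389) and for Ces2a by 1.93 ± 0.27 (adjusted p = 0.000448). These were 2 of 6 carboxylesterases, beside 0.0474% of all probes. Both were called in all 16 fits that left out 1 array. For Ces1e the difference was 1.25 ± 0.34 (adjusted p = 0.452) and for Ces1d 1.11 ± 0.38 (0.75).

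In wild type none of the 6 was called between the compounds in limma, beside 0.0119% of all probes, and 2 of 6 had an unadjusted p under 0.05. The PFOA response exceeded that to pirinixic acid by 0.94 ± 0.28 for Ces2a (adjusted p = 0.239) and by 0.69 ± 0.33 for Ces1g (0.357). For Ces1d and Ces1e the differences were 0.03 ± 0.40 and 0.18 ± 0.36, with intervals of -0.78 to 0.84 and -0.56 to 0.91.

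Without treatment, the genotypes and vehicles gave no called carboxylesterase. Null against wild type on water called 0 of 6 in limma, beside 0.127% of all probes, and 3 of 6 had an unadjusted p under 0.05. Ces1d differed by -0.75 ± 0.27 (null minus wild type, adjusted p = 0.397), with no overlap of the groups. Ces1e differed by -0.71 ± 0.24 and Ces2e by 0.55 ± 0.19 (both adjusted p = 0.387). Ces2a differed by -0.38 ± 0.19 (0.465), and its null and wild-type water arrays did not overlap.

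On methylcellulose the same comparison called 0 of 6, beside 0.186% of all probes, with 0 of 6 at an unadjusted p under 0.05 in limma. Ces1d differed by -0.39 ± 0.29, Ces1e by -0.10 ± 0.26 and Ces2e by 0.27 ± 0.20. Methylcellulose against water called 0 of 6 in either genotype, beside 0% of all probes in wild type and 0% in null mice, again with 0 of 6 at an unadjusted p under 0.05 in limma.

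Over the 10 groups the genes differed in how far their means spread, from 0.23 for Ces1f to 2.28 for Ces1g and 2.50 for Ces2a. Ces1g was highest in null mice on 3 mg/kg (17.14 ± 0.14, SD), apart from all other groups. Then came null 1 mg/kg (16.38 ± 0.31), wild type 3 mg/kg (16.36 ± 0.20) and wild type 1 mg/kg (16.24 ± 0.29, and 16.15 ± 0.27 without the doubtful array), which did not differ beyond their SDs. Wild type on pirinixic acid followed at 15.86 ± 0.38, and the 4 vehicle groups and null mice on pirinixic acid lay at 14.86 to 15.36. Of the 9 neighbouring pairs in this order, 6 were within the larger SD of the pair.

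Ces2a began with null 3 mg/kg (19.30 ± 0.12) and null 1 mg/kg (18.42 ± 0.12), each clear of the next group. The next 7 groups lay between 17.60 and 18.03, the latter being wild type at 1 mg/kg (17.94 ± 0.12 without the doubtful array), and wild type on pirinixic acid closed the order at 16.79 ± 0.63. 5 of its 9 neighbouring pairs were within the larger SD.

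Ces1d and Ces1e had orders led by treated wild-type mice. Ces1d was 19.55 ± 0.14 in wild type at 3 mg/kg, 19.50 ± 0.51 with pirinixic acid and 19.20 ± 0.63 at 1 mg/kg, with null 3 mg/kg at 19.18 ± 0.29 and null water last at 18.21 ± 0.21. All 9 neighbouring pairs were within the larger SD. Without the doubtful array the wild-type 1 mg/kg means were 19.50 ± 0.26 for Ces1d and 17.26 ± 0.15 for Ces1e, and the latter then heads its order. Ces1e was 17.22 ± 0.11 in wild type at 3 mg/kg, 16.98 ± 0.56 at 1 mg/kg and 16.80 ± 0.28 with pirinixic acid, then 16.79 ± 0.26 in null mice at 3 mg/kg, and null water was again last at 15.66 ± 0.38. 8 of the 9 pairs were within the larger SD, as for Ces2e, which ran from 16.99 ± 0.23 in null 3 mg/kg to 15.87 ± 0.18 in wild type on methylcellulose. Ces1f had group means of 17.52 to 17.75, and all 9 pairs were within the larger SD. Without the doubtful array the wild-type 1 mg/kg means were 17.83 ± 0.11 for Ces1f and 16.51 ± 0.22 for Ces2e.

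As a description with no test, the members' profiles were correlated over the 10 group means. Ces1d and Ces1e were the most alike pair (r = 0.943), with r = 0.715 over 39 arrays and 0.227 after group means were removed. Ces1g and Ces1e had r = 0.758 over group means, Ces2a and Ces2e 0.661, and Ces2a and Ces1d 0.011. All points share arrays and normalisation.

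The genes most like each member by the same measure were named by rule, the 3 highest of 11567 genes. For Ces2a they were Gstm2 (0.945 over group means, 0.857 over 39 arrays), Cyp2d34 (0.936 and 0.685) and Pdzk1 (0.908 and 0.799). For Ces1d they were Psma3 (0.977 and 0.773), Inmt (0.970 and 0.801) and Acadl (0.966 and 0.877). For Ces1e they were Cyp4f15 (0.965 and 0.838), Rhcg (0.964 and 0.639) and Mt3 (0.959 and 0.655). After group means were removed, r was 0.562, 0.484 and 0.278 for those of Ces2a. It was then 0.448, 0.430 and 0.791 for those of Ces1d, and 0.499, 0.0008 and -0.067 for those of Ces1e. Gstm2 is a glutathione transferase, Acadl a mitochondrial acyl-CoA dehydrogenase and Cyp4f15 a fatty acid hydroxylase.

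Ces2e was most like Slc22a18 (0.953 and 0.794), Nup210 (0.952 and 0.598) and Snhg11 (0.940 and 0.794). Ces1g was most like Olfr1391 (0.967 and 0.462), Olfr603 (0.957 and 0.687) and Egln3 (0.955 and 0.733). The first pair are olfactory receptors, a kind counted below among genes that liver does not express. After group means were removed, r was 0.236, 0.418 and -0.113 for those of Ces1g. For those of Ces2e it was 0.429, 0.034 and 0.392. The flat Ces1f gave Edf1 (0.860), Edrf1 (0.846) and Lgals12 (0.843), and over 39 arrays these fell to -0.024, 0.415 and 0.113.

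Of 13 other carboxylesterase entries in the annotation, 1 of them the pseudogene Ces2d-ps, 4 had a tested probe of their own, Ces1c, Ces2b, Ces2g and Ces4a. 1 call was made among them over the 6 treated groups. Ces2g, a CES2-type gene of the second cluster, fell in wild type at 3 mg/kg by 0.76 on the log2 scale (SE 0.18, adjusted p = 0.00936). It read 14.94 to 15.32 on water and 14.20 to 14.68 at 3 mg/kg, without overlap. In null mice the difference was 0.38 ± 0.18 (adjusted p = 0.595), and the genotype difference in response, 1.13 ± 0.26, passed (adjusted p = 0.0362). Ces1c, Ces2b and Ces4a were dim, between percentiles 23.5 and 29.1 of tested probes.

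Gene lists are read beside the shares of all tested probes called. These were 5.82% at 3 mg/kg, 0.273% at 1 mg/kg (0.984% without the doubtful array) and 6.10% with pirinixic acid in wild type, and 0.300%, 0.0119% and 0% in null mice. Other ester and lipid hydrolases of liver were counted for 23 of 29 listed genes. In wild type, 8 rose and 1 fell at 3 mg/kg (median 0.53, all probes -0.02), 2 rose at 1 mg/kg (6 without the doubtful array), and 3 rose and 1 fell with pirinixic acid. In null mice 1 rose at 3 mg/kg and none passed at 1 mg/kg or with pirinixic acid. The wild-type rises at 3 mg/kg included Mgll, monoacylglycerol lipase (2.04 ± 0.31), Abhd6, another monoacylglycerol lipase (2.02 ± 0.31), Abhd4 (1.17 ± 0.17) and Ephx1, microsomal epoxide hydrolase (0.83 ± 0.13), with adjusted p-values of 4.14e-05 to 7.80e-05. The gene that fell was Pon1, paraoxonase (-0.49 ± 0.13). Nceh1, a cholesteryl ester hydrolase, and Ephx1 rose at 1 mg/kg (1.74 ± 0.36 and 0.71 ± 0.13, and 1.98 ± 0.37 and 0.75 ± 0.14 without the doubtful array). With pirinixic acid Mgll, Ephx2 and Abhd4 rose (1.70 ± 0.34, 1.21 ± 0.29 and 0.74 ± 0.19) and Pnpla6 fell (-0.85 ± 0.23). Ephx1 was the gene that rose in null mice, by 0.87 ± 0.13 (adjusted p = 0.000244, limma). The same gene is counted again among the xenobiotic genes below.

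Genes of triacylglycerol synthesis and VLDL assembly, in a list that also holds lipid droplet genes, were tested for 15 of 18. In wild type 4 rose and none fell at 3 mg/kg (median 0.09), 1 rose at 1 mg/kg (2 without the doubtful array), and 3 rose and 1 fell with pirinixic acid. Mogat1, a monoacylglycerol acyltransferase, rose by 5.96 ± 0.78 at 3 mg/kg and by 5.36 ± 0.84 with pirinixic acid. The lipid droplet proteins Plin2 and Cidec rose by 2.75 ± 0.40 and 3.29 ± 0.51 at 3 mg/kg, and Lpin2, a phosphatidate phosphatase, by 1.42 ± 0.40. Mogat1 was the gene that rose at 1 mg/kg (3.69 ± 0.78, and 4.97 ± 0.60 without the doubtful array), and Cidec and Plin2 also rose with pirinixic acid (2.20 ± 0.55 and 1.62 ± 0.43). Apolipoprotein gene Apoa4 fell with pirinixic acid (-2.15 ± 0.30). In null mice 0 of 15 passed in limma in any of the 3 treatments.

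Xenobiotic genes of the receptors CAR and PXR and of the factor NRF2 were tested for 19 of 26. In null mice 3 rose at 3 mg/kg (median 0.30, all probes -0.03), 1 rose at 1 mg/kg and none passed with pirinixic acid. In wild type 7 rose and 1 fell at 3 mg/kg (median 0.25), 2 rose at 1 mg/kg (4 without the doubtful array), and 1 rose and 1 fell with pirinixic acid. Cyp2c55, a cytochrome P450 inducible through CAR and PXR, rose in null mice by 6.79 ± 0.45 at 3 mg/kg and 4.83 ± 0.45 at 1 mg/kg. Cyp2b10, the standard CAR target, rose by 4.60 ± 0.58 in null mice and by 2.13 ± 0.58 in wild type at 3 mg/kg, and the genotype difference of 2.46 ± 0.82 did not pass (adjusted p = 0.224). Ephx1 was the other gene that rose in null mice. In wild type the 2 rises at 1 mg/kg were Cyp2c55 (3.61 ± 0.45, and 3.01 ± 0.40 without the doubtful array) and Ephx1, the fall at 3 mg/kg was the transporter gene Slco1a4 (-3.54 ± 0.61), and with pirinixic acid Aldh1a1 rose (0.64 ± 0.16) and Gsta4 fell (-1.01 ± 0.29).

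PPARα targets, counted as a check of the treatments for 8 of 12 listed, rose for 7 at 3 mg/kg (median 4.42), 3 at 1 mg/kg (Acot1, Ehhadh and Cd36, and 5 genes without the doubtful array) and 5 with pirinixic acid in wild type. In null mice 0 of 8 passed in limma in any of the 3 treatments. Acot1 nevertheless read 14.38 to 15.69 in null mice on water and 16.44 to 17.05 at 3 mg/kg, without overlap. Ehhadh overlapped between the same groups (15.90 to 16.59 and 15.79 to 17.07). Male-biased genes under growth hormone were tested for 8 of 12. In wild type 5 fell at 3 mg/kg and 4 with pirinixic acid. Hsd3b5, C8b, Slco1a1 and Ugt2b1 fell in both and Susd4 at 3 mg/kg, with Hsd3b5 at -4.85 ± 0.69 and -4.49 ± 0.75. In wild type at 1 mg/kg without the doubtful array, 1 of the 8 fell (median -0.67). In null mice none passed in limma.

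These are whole livers, so fewer cells of a type and less RNA per cell cannot be told apart. Where the Ces2a fall was seen, in wild type on pirinixic acid, 4 of 8 tested Kupffer cell markers fell (Clec4f, Vsig4, C1qa and C1qb, median of the list -0.72) and 4 of 10 endothelial markers fell (Kdr, Tek, Clec4g and Eng, median -0.52). Their mean signals per array were 12.50 to 12.80 on methylcellulose and 11.99 to 12.19 on pirinixic acid for Kupffer cells, and 12.93 to 13.23 and 12.58 to 13.09 for endothelial cells. Of 5 hepatocyte markers 1 fell, Ahsg (-0.87 ± 0.22), with list means of 19.67 to 20.41 on methylcellulose and 19.40 to 19.93 on pirinixic acid. Of 7 stellate cell markers 1 fell, Rgs5 (-0.68 ± 0.18), and the list's mean signals were 11.82 to 12.34 on methylcellulose and 11.81 to 12.32 on pirinixic acid. Of 2 red blood cell markers 1 fell, Alas2 (-1.01 ± 0.31), with list means of 12.03 to 12.32 and 11.53 to 12.15. Of 5 intestinal epithelium markers Fabp2 rose (1.85 ± 0.24) and Apoa4 fell, while Vil1, Krt20 and Cdx2 were not called. Apoa4 is also in the list of triacylglycerol and VLDL genes above, so it is not a marker of intestine alone here. The list means were 12.84 to 13.35 on methylcellulose and 12.39 to 13.35 on pirinixic acid. The background share for these counts is the 6.10% given above. The part of these shifts in the Ces2a result was not tested.

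In null mice at 3 mg/kg none of the Kupffer cell, endothelial or hepatocyte markers passed. The hepatocyte list means per array were nevertheless lower, 20.06 to 20.23 on water and 19.64 to 19.99 at 3 mg/kg, without overlap. Of 3 neutrophil markers 1 rose, S100a8, from 7.34 to 8.73 on water to 14.85 to 16.54 (7.44 ± 0.70), while S100a9 (-0.28 ± 0.34) and Elane (-0.62 ± 0.51) did not pass. Of 7 stellate cell markers 1 rose, Col1a1 (3.10 ± 0.38), while Col1a2 (0.16 ± 0.17) and Col3a1 (0.19 ± 0.28) did not. All 4 PFOA arrays shared both rises. The part of these rises and of the lower hepatocyte means in the carboxylesterase results was not tested. At 3 mg/kg in wild type 1 of 8 Kupffer cell markers fell (Vsig4, median of the list -0.50), and of 10 endothelial markers Lyve1 rose and Stab2 and Kdr fell. In the same comparison 1 of 5 hepatocyte markers fell (Ahsg, -0.81 ± 0.20), 1 of 7 stellate cell markers fell (Dcn, -0.52 ± 0.13) and 1 of 5 intestinal epithelium markers rose (Fabp2, 1.64 ± 0.22), beside 5.82% of all probes. Wild-type hepatocyte list means per array were 19.97 to 20.18 on water and 19.51 to 19.75 at 3 mg/kg, without overlap.

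The called differences were also taken within each of the sets of arrays that the 85 probes define. In null mice at 3 mg/kg, Ces1g differed by 2.28 in the smaller and 2.10 in the larger set, Ces2a by 1.67 and 1.61, and Ces1e by 1.36 and 0.84. The larger set holds 1 null water array, so all its null PFOA differences rest on that 1 control. In wild type at 3 mg/kg, Ces1g differed by 1.35 and 1.04 and Ces1e by 1.08 and 0.61. At 1 mg/kg Ces1g differed by 1.44 and 1.42 in null mice and by 0.93 and 1.01 in wild type, where the smaller set holds 1 treated array. The Ces2a fall on pirinixic acid was -1.08 in the larger set and could not be taken in the smaller. With so few arrays in a set, the test kept only Ces1g and Ces2a in null mice at 3 mg/kg, in the smaller set.

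**Figure D4:**
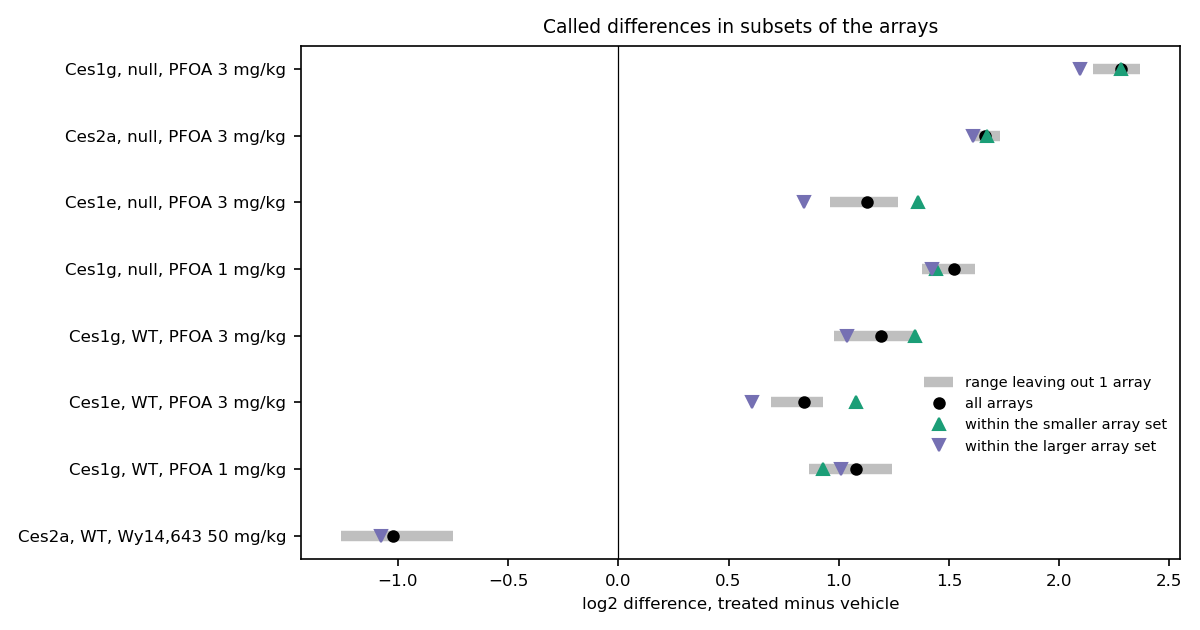
Log2 difference from vehicle for the 8 called carboxylesterase responses with all arrays (black), within each array set (triangles) and over fits leaving out 1 array (grey bars). Every value kept its sign, and those of Ces1e moved most between the sets, from 0.61 to 1.08 in wild type and from 0.84 to 1.36 in null mice. The null values in the larger set rest on 1 water array.

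A background measure, the mean signal of 583 probes whose genes liver does not express (such as odorant receptors), ranged from 8.68 to 9.23 over the arrays. Within groups it correlated with Ces1e at 0.48, Ces1d at 0.35, Ces2e at 0.29, Ces1g at 0.24, Ces2a at 0.09 and Ces1f at 0.08, over 39 arrays and with no test. With this mean as a covariate all 11 called carboxylesterase differences stayed called.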

How the data were processed

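Total liver RNA was amplified into digoxigenin-labelled cRNA and hybridised, per the labels' protocols, on the Mouse Genome Survey platform of Applied Biosystems. The deposited values are log2 signals, 1 column for each of 39 arrays, with the same median (9.14) on every array and a range of 4.85 to 21.5. The logarithm's base is taken as 2 from that range, and the sources used here give neither the software, nor the normalisation, nor why some values are missing.

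Of 33012 probes, 14411 carry 1 gene symbol, 247 several and 18354 none. Tests used the 25295 probes measured on every array, and the 7717 others were left out. A model with a mean for each group was fitted by limma 3.58.1 (R 4.3.3, 29 residual and 2.51 prior degrees of freedom), with no further normalisation. Each of 17 differences was tested two-sided with Benjamini-Hochberg adjustment over all tested probes, and called at an adjusted p under 0.05. Errors of differences are SEs, of group means SDs. The number of arrays limits the precision, and since the labels name 4 animals per group, replicates are taken as animals. Many comparisons share control arrays. The code was checked on simulated data.

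The members and all gene lists were chosen with earlier results of these data known. From each list, up to 4 called genes per comparison with the smallest adjusted p could be named. Pon1, Cyp2b10 in wild type, Ugt2b1 at 3 mg/kg, S100a9, Elane, Col1a2 and Col3a1 fall outside that rule and were added after their values were seen. For RefSeq, 14402 of 14411 single-gene probes and all 6 members matched by Entrez number. Alternatives tried were a replicate block, the array sets, the background mean, missing values kept, dim probes left out, cyclic loess, another variance prior, fits of only the groups compared, and each array left out.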

Additional observations from a re-analysis of the deposited data

Results flagged for a closer look

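In 54 sets of values, 1 gene in 1 group of 4 arrays each, a gap test set at 5% picked out 2 arrays that stood apart, and chance alone picks out about 1 set in 20. Ces1f read 17.42 in null PFOA 3 mg/kg replicate 3, beside 17.70 to 17.75 on the other 3 arrays. Ces2e read 16.62 in null methylcellulose replicate 4, beside 15.96 to 16.02 on the others. The response of Ces2a to PFOA at 3 mg/kg differed between the genotypes in the test of that difference, by 1.74 ± 0.27 on the log2 scale (adjusted p = 0.000816, limma).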

How the results depend on the processing

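None of the 11 called differences changed sign under the alternatives run (110 of 110 values), nor in the 111 values with 1 array left out, of which 16 lost the call. Of the 915 such values of the 91 differences that were not called, 53 changed sign, all of differences of at most 0.27 in size, and 2 gained a call. With a replicate block, the array set as a block, the background mean as a covariate, missing values kept, dim probes left out, cyclic loess, or another variance prior, all 11 stayed called. Same-numbered arrays of different groups deviated together more than others did. Their median r was 0.101 over 171 pairs, 86 of them over 0.1. For other numbers it was -0.042 over 513 pairs, 92 of them over 0.1. The main fit did not pair animals by number, and the replicate block was run as the alternative. With the replicate block the responses of Ces1e and Ces1g to pirinixic acid in wild type were 0.61 and 0.52, and every count of called genes was as reported.

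Fits of only the groups compared kept 5 of the 11 calls, and the counts of called genes went to 0 in wild type at 3 mg/kg, wild type at 1 mg/kg, wild type on pirinixic acid and null at 1 mg/kg. Within the smaller array set 2 of 10 calls were kept, and the count went to 0 in wild type at 3 and 1 mg/kg, null at 1 mg/kg, the genotype difference at 3 mg/kg and the compound difference in null mice. Within the larger set 0 of 11 were kept, so each of these counts, that of wild type on pirinixic acid and that of null at 3 mg/kg went to 0. These fits have fewer arrays. With 1 array left out the count ranged from 1 to 2 in wild type at 3 mg/kg, 0 to 1 in wild type at 1 mg/kg, 2 to 3 in null at 3 mg/kg, 1 to 2 for the genotype difference at 3 mg/kg and 0 to 1 for that on pirinixic acid.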
